A study of Mus musculus with 32 samples.

Results

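The 10 genes described here, Tcf21, Meox1, Pdgfra, Ddr2, Scara5, Dpep1, Thy1, Cd248, Islr and Dpt, are used as markers of cardiac fibroblasts. They were taken by name from the 19938 genes named on the array, each represented by its brightest probe set. Each had 1 probe set, and all 10 were among the 15219 genes that lay above a floor of 4.48 log2 and were tested. Cardiac fibroblasts are the interstitial cells of the heart that make and maintain its collagen network. At rest they carry the transcription factor Tcf21 and the receptor Pdgfra, and on injury they become activated, take up contractile proteins such as smooth muscle actin, and secrete periostin and collagens. Fibrosis of the atria is a known accompaniment of atrial enlargement and arrhythmia.

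RNA from the paired atria of 16 mice was read on 32 arrays, a separate one for each atrium, with 4 animals in each of 4 genotypes. Ntg animals carried no transgene, dnPI3K animals carried a dominant negative form of phosphoinositide 3-kinase, Mst1 animals carried the Hippo pathway kinase Mst1 (gene Stk4), and dnPI3K-Mst1 animals carried both. All 4 genotypes shared a mixed C57BL/6 and FVB/N background, standard chow and a regular light and dark cycle, and no age is given in the labels. The labels name no promoter for either transgene. Published lines under these names express the transgene in cardiac myocytes, and the labels do not say whether these are the same lines. All values are deposited log2 signals, so a difference of 1 is a doubling, and for genotype comparisons the unit of replication was the animal, with its atria averaged. Groups of 4 animals limit the precision, and the p-values reflect how far these animals differ among themselves.

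The transgene mark followed the labels: Stk4 averaged 7.54 ± 0.11 log2 in Ntg and 7.61 ± 0.13 in dnPI3K, against 8.25 ± 0.09 in Mst1 and 8.33 ± 0.11 in dnPI3K-Mst1 (SD, n = 4 animals each). The side labels could not be used in the same way. Bmp10, a secreted factor that in the adult mouse heart is known from the right atrium, was at 11.42 log2 or more on 1 array of every animal and at 6.64 or less on the other. The Bmp10-high array was labelled left in 13 animals and right in 3, with 2 of the 4 Ntg animals, 1 of the 4 Mst1 animals and no animal of the other genotypes labelled right. The atria are therefore called Bmp10-high and Bmp10-low below, by a threshold of 9 log2, and are not renamed right or left. Array medians lay between 5.51 and 5.68 log2. In 4 Bmp10-high arrays, from Mst1 1466, dnPI3K 3241, dnPI3K 1507 and Ntg 1662, values over all probe sets correlated with the remaining arrays at a mean r below 0.97 (0.949 to 0.969), and where a call on a marker described below was lost without these 4 animals, the value without them is given too.

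Promoter sequences from RefSeq (build GRCm38.p6) were found for 6 of the 10 genes. Shown are the 250 bases before the start of Tcf21 (chr10:22820144-22820393, minus strand) and of Pdgfra (chr5:75152001-75152250, plus strand), the defining fibroblast genes of the set. Added is the same window of Dpep1 (chr8:123185985-123186234, plus strand), whose differences between genotypes depended on the atrium. Each is written 5′ to 3′ in the direction of the gene, and capitals mark matches, on either strand, to GGAATG, the core bound by TEAD factors at the end of the Hippo pathway, or to TGANTCA, bound by AP-1.
Tcf21: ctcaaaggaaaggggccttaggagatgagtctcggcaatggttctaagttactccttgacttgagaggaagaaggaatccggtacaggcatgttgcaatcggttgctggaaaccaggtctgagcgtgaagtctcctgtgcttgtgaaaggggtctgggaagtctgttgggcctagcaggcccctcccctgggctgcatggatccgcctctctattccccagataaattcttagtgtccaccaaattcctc
Pdgfra: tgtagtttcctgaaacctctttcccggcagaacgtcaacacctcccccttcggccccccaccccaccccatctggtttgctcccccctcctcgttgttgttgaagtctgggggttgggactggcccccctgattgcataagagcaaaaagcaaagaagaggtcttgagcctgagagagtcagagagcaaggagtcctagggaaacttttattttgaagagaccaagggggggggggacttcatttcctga
Dpep1: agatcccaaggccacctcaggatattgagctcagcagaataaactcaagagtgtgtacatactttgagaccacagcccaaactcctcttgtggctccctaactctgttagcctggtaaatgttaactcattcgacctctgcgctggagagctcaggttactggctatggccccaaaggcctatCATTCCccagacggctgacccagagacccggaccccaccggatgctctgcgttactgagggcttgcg
The Dpep1 window held 1 match to the TEAD motif, CATTCC on the other strand, 67 bases before the start, and no match to AP-1. Neither motif was present in the Tcf21 or Pdgfra window, nor in those of Ddr2, Islr and Dpt. Of 32851 promoter windows of the same length, 12.6% held the TEAD motif and 6.7% the AP-1 motif. The E-box CANNTG, the motif of the helix-loop-helix family to which Tcf21 belongs, was present in 66.2% of windows, 6 times in that of Dpt and once each in those of Pdgfra and Islr, and it overlapped neither of the other motifs in the printed sequences.

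The first question was how the fibroblast markers differed between genotypes. They did not move together. In Mst1 animals Meox1 and Tcf21 rose and Scara5 fell, in dnPI3K animals Pdgfra and Dpep1 rose, and in dnPI3K-Mst1 animals Meox1, Tcf21, Pdgfra, Islr and Thy1 rose and Scara5 fell. Changes were called by limma at a Benjamini-Hochberg adjusted p under 0.05 over all genes tested. Against Ntg, 3 of 10 were called in Mst1, where 26.8% of all genes tested were called. In dnPI3K the count was 2 of 10 against 4.05% of all genes, and in dnPI3K-Mst1 it was 6 of 10 against 30.6%. These 3 comparisons share the same Ntg animals. The median difference over the 10 genes was -0.04 log2 for Mst1, 0.12 for dnPI3K and 0.29 for both transgenes, where the median of all genes lay between -0.00416 and 0.0167. Against Mst1, 3 of 10 were higher in dnPI3K-Mst1 (3.5% of all genes called and 2.65% higher, median 0.27): Pdgfra, Islr and Thy1. The other 7 were not called, with Tcf21 at 0.33, Dpep1 at 0.29, Ddr2 at 0.26, Dpt and Meox1 at 0.10, Scara5 at 0.09 and Cd248 at -0.04 log2. In this comparison genes of other cells rose too: 4 of 6 endothelial, 3 of 6 macrophage, 3 of 7 mural and 2 of 7 mesothelial genes, with 0 lower. Their part in the rise of the 3 markers was not tested. Against dnPI3K 4 were higher and 2 lower, where 21.6% of all genes were called, 12.8% higher and 8.8% lower (median 0.12). The 4 not called there were Cd248 at 0.13, Dpt at 0.11, Ddr2 at 0.02 and Pdgfra at -0.05. For the non-additivity of the transgenes, which asks whether the joint effect differs from the sum of the single ones, 0 of 10 were called by limma, where 0.513% of all genes were. At an unadjusted p under 0.05 there were 3, among them Islr at 0.48 ± 0.17 and Thy1 at 0.45 ± 0.15 log2 (SE).

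**Figure D1:**
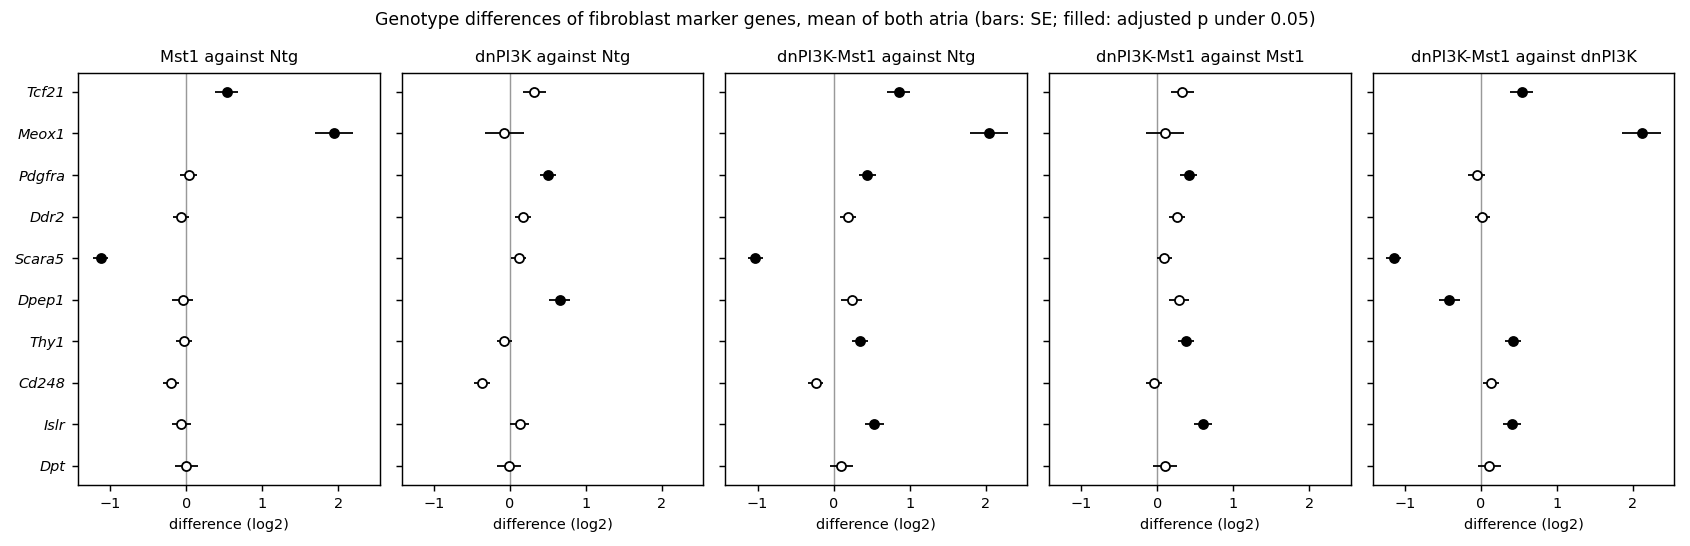
Log2 difference of the mean of both atria (x axis) for each marker gene (y axis) in 5 genotype comparisons, with 4 animals per genotype. Points are limma estimates, bars are standard errors, and filled points have an adjusted p under 0.05. Meox1 lies near 2 and Scara5 near -1 in the 3 panels that compare genotypes with and without Mst1.

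Meox1 encodes a homeobox transcription factor that promotes the activated state of cardiac fibroblasts. It was the marker with the largest difference between genotypes. The mean of both atria was 7.28, 7.53, 8.32 and 6.53 log2 in the Ntg animals, and 7.88, 7.21, 7.30 and 6.97 in dnPI3K. It was 9.49, 9.43, 9.19 and 9.33 in Mst1, and 9.35, 9.18, 9.71 and 9.58 in dnPI3K-Mst1. Every animal with the Mst1 transgene lay above every animal without it, and the Ntg animals were the most spread (SD 0.74, against 0.13 in Mst1). The rise was 1.94 ± 0.25 log2 (SE; 3.84-fold) in Mst1 against Ntg, with a limma adjusted p of 7.5e-06. It was 2.04 ± 0.25 in dnPI3K-Mst1 against Ntg (adjusted p = 3.3e-06) and 2.11 ± 0.25 in dnPI3K-Mst1 against dnPI3K (adjusted p = 5e-06). Between dnPI3K and Ntg the difference was -0.07 ± 0.25, and between dnPI3K-Mst1 and Mst1 it was 0.10 ± 0.25, so that the levels formed an upper and a lower pair of genotypes whose members did not differ beyond their spread. In this bulk tissue, more cells of a type and more RNA per cell cannot be told apart, here or in the results that follow. The rise was present in both atria, at 1.71 ± 0.21 in Bmp10-high arrays and 2.17 ± 0.36 in Bmp10-low arrays for Mst1 against Ntg. No chamber difference was called for Meox1 in any genotype, and the mean difference between an animal's atria was -0.15 ± 0.10 (adjusted p = 0.44).

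Tcf21 encodes the transcription factor required for cardiac fibroblasts to form. Ntg animals had 8.88, 8.15, 8.38 and 8.42 log2 and dnPI3K animals 8.84, 8.68, 8.78 and 8.82. Mst1 animals had 9.31, 8.85, 8.99 and 8.80, and dnPI3K-Mst1 animals 9.64, 9.48, 8.93 and 9.22. In ascending order the group means were 8.46 (Ntg), 8.78 (dnPI3K), 8.99 (Mst1 alone) and 9.32 (both transgenes). Neighbours in this order overlapped, while Ntg and dnPI3K-Mst1 did not. Limma called the rise of 0.86 ± 0.15 in dnPI3K-Mst1 against Ntg (1.81-fold, adjusted p = 0.00019) and that of 0.53 ± 0.15 in Mst1 against Ntg (1.44-fold, adjusted p = 0.013). The second call was lost without Ntg animal 1657, the lowest of its group (adjusted p = 0.055), and without the 4 animals with arrays that stood apart it was 0.40 (adjusted p = 0.11). Against dnPI3K, dnPI3K-Mst1 was higher by 0.54 ± 0.15 (adjusted p = 0.014), a call that was lost without dnPI3K-Mst1 1509 (adjusted p = 0.062). The estimates for dnPI3K against Ntg, 0.32 ± 0.15, and for dnPI3K-Mst1 against Mst1, 0.33 ± 0.15, did not pass (adjusted p = 0.29 and 0.27). Tcf21 thus rose beside Meox1 in both genotypes that carried Mst1.

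**Figure D2:**
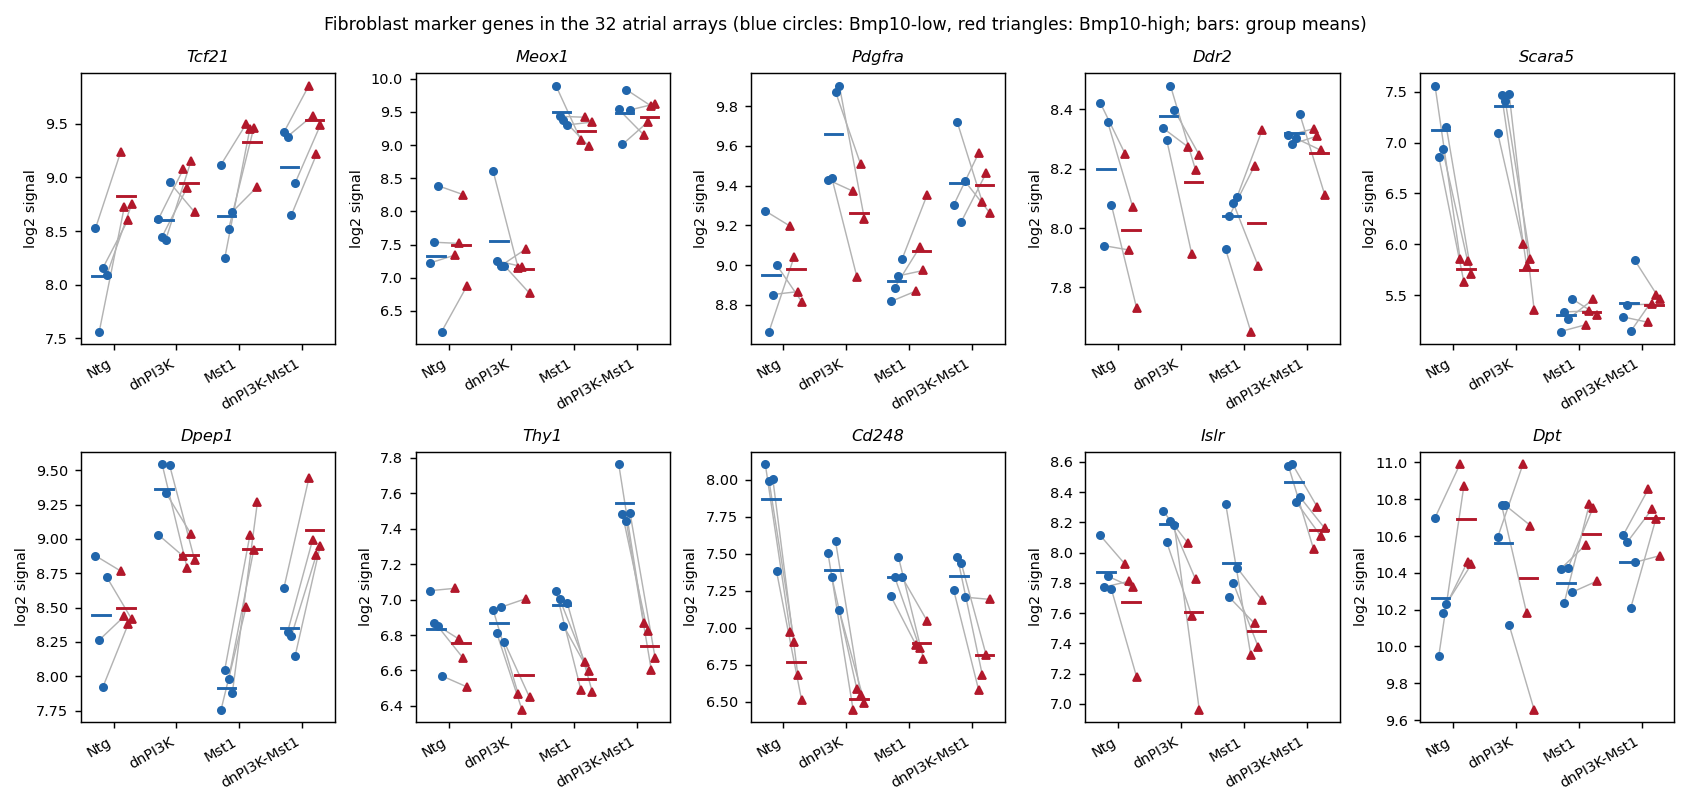
Log2 signal of each of the 10 marker genes (y axis) on all 32 arrays, by genotype (x axis) and by Bmp10 class of the atrium. Scara5 is high in the Bmp10-low atria of Ntg and dnPI3K alone, 6.86 to 7.56, and Meox1 is at 8.99 or more on every array of Mst1 and dnPI3K-Mst1.

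The receptor kinases differed between genotypes by less. Pdgfra, the receptor for PDGF-AA on fibroblasts and a marker of their resting and activated forms alike, was at 9.23, 8.85, 8.86 and 8.91 log2 in Ntg, and at 8.84, 8.99, 8.96 and 9.19 in Mst1. It was at 9.40, 9.19, 9.69 and 9.57 in dnPI3K, and at 9.43, 9.52, 9.34 and 9.34 in dnPI3K-Mst1. The groups with dnPI3K were the higher pair. Ntg 1301 reached into the range of the dnPI3K group, and Mst1 1840 was level with its lowest animal. Limma called 0.50 ± 0.11 in dnPI3K against Ntg (1.41-fold, adjusted p = 0.012), 0.44 ± 0.11 in dnPI3K-Mst1 against Ntg (adjusted p = 0.0038) and 0.41 ± 0.11 in dnPI3K-Mst1 against Mst1 (adjusted p = 0.041). Without the 4 animals with arrays that stood apart, the first was 0.44 (adjusted p = 0.14) and the third 0.36 (adjusted p = 0.082), and the third was also lost in 9 of the 16 fits that left out 1 animal. Mst1 against Ntg gave 0.03 ± 0.11. Ddr2, a receptor for fibrillar collagen, varied least, between 7.65 and 8.48 log2 over all arrays. Its estimates against Ntg were -0.07 ± 0.10 for Mst1, 0.17 ± 0.10 for dnPI3K and 0.19 ± 0.10 for both transgenes (adjusted p from 0.18 to 0.69). The 95% interval of the difference in Mst1 was -0.29 to 0.15 log2.

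Other genes of PDGF signalling were read from a list of 6 ligands and receptors that includes Pdgfra. In Mst1 against Ntg 1 of 6 rose and 0 fell, where 12.6% of all genes rose: the ligand gene Pdgfc, by 0.92 ± 0.13 log2 (adjusted p = 1.6e-05). In dnPI3K against Ntg 1 of 6 rose, Pdgfra, where 1.29% of all genes did. In dnPI3K-Mst1 against Ntg 4 of 6 rose, where 16.4% of all genes did, Pdgfc by 0.79, the mural cell receptor Pdgfrb by 0.70 and Pdgfd by 0.46 beside Pdgfra. The list's median differences were 0.07, -0.02 and 0.45 log2 in the 3 comparisons. Pdgfa and Pdgfb were called in none of them.

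Scara5, a scavenger receptor that binds ferritin and marks adventitial fibroblasts, was the marker that fell furthest. The means of both atria were 6.71, 6.25, 6.39 and 6.43 log2 in Ntg and 6.55, 6.63, 6.63 and 6.42 in dnPI3K. They were 5.18, 5.34, 5.36 and 5.39 in Mst1 and 5.26, 5.41, 5.32 and 5.65 in dnPI3K-Mst1. The groups with and without Mst1 were separated by a clear gap, and the members of each pair overlapped. Scara5 fell by 1.13 log2 in Mst1 (SE 0.10; 2.18-fold lower, adjusted p = 6.9e-08) and fell by 1.03 in dnPI3K-Mst1 (SE 0.10; 2.04-fold lower, adjusted p = 1.6e-07), both against Ntg. Against dnPI3K, dnPI3K-Mst1 was 2.21-fold lower (adjusted p = 9.9e-08). The estimate for dnPI3K against Ntg was 0.11 ± 0.10 (adjusted p = 0.63).

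Most of the measured fall lay in the Bmp10-low atrium. In Bmp10-low arrays Scara5 was at 7.56, 6.86, 6.94 and 7.15 log2 in Ntg and at 7.09, 7.47, 7.41 and 7.48 in dnPI3K, against 5.14, 5.34, 5.27 and 5.47 in Mst1 and 5.29, 5.41, 5.15 and 5.85 in dnPI3K-Mst1. In Bmp10-high arrays all 4 genotypes lay between 5.21 and 6.01. The Bmp10-low atria of Ntg and dnPI3K stood above the other 24 arrays, which lay between 5.14 and 6.01. That range spans the array medians of 5.51 to 5.68 log2. At such levels a fall, or a difference between atria, may not show in full. The fall in Mst1 against Ntg was -1.82 ± 0.15 (3.54-fold lower, adjusted p = 1.3e-07) in Bmp10-low arrays and -0.43 ± 0.12 (adjusted p = 0.022) in Bmp10-high arrays, a call lost without Ntg 1301 or without Ntg 1662. Within animals, Scara5 was lower in the Bmp10-high atrium of 8 of 8 Ntg and dnPI3K animals, with differences of -1.70, -1.23, -1.10 and -1.44 log2 in Ntg and -1.08, -1.69, -1.55 and -2.13 in dnPI3K. In Mst1 and dnPI3K-Mst1 the differences lay between -0.39 and 0.36, and 5 of 8 animals were higher in the Bmp10-high atrium. The difference between atria changed by 1.40 ± 0.19 in Mst1 against Ntg (adjusted p = 0.00021) and by 1.35 ± 0.19 in dnPI3K-Mst1 against Ntg (adjusted p = 0.00028). Such a genotype-by-chamber change was called for 1.17% and 0.999% of all genes in these comparisons.

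Dpep1 encodes a membrane dipeptidase and marks a subset of fibroblasts. Its differences between genotypes depended on the atrium, and for Mst1 against Ntg the estimates for the 2 kinds of atrium had opposite signs. In Bmp10-low arrays it was at 8.88, 8.26, 7.92 and 8.72 log2 in Ntg, 9.03, 9.55, 9.34 and 9.54 in dnPI3K, 7.76, 8.05, 7.98 and 7.88 in Mst1, and 8.64, 8.32, 8.29 and 8.15 in dnPI3K-Mst1. The dnPI3K animals were above all others there. In Bmp10-high arrays it was at 8.77, 8.44, 8.38 and 8.41 in Ntg, 8.87, 8.79, 9.04 and 8.85 in dnPI3K, 8.505, 9.03, 8.92 and 9.27 in Mst1, and 9.44, 8.996, 8.89 and 8.95 in dnPI3K-Mst1. All 3 transgenic groups had higher means than Ntg in that atrium. Against Ntg, Mst1 was lower by limma in Bmp10-low arrays (-0.53 ± 0.17, adjusted p = 0.026), a call lost in 4 of 16 fits that left out 1 animal. In Bmp10-high arrays the same comparison gave 0.43 ± 0.15 (adjusted p = 0.058). The mean of both atria differed by -0.05 ± 0.13 (adjusted p = 0.85). In dnPI3K-Mst1 Dpep1 rose by 0.57 ± 0.15 in Bmp10-high arrays (adjusted p = 0.0099), lost without dnPI3K-Mst1 1509, and the Bmp10-low estimate was -0.10 ± 0.17.

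In dnPI3K the mean of both atria of Dpep1 rose, to 8.95, 9.17, 9.19 and 9.19 log2, from 8.82, 8.35, 8.15 and 8.57 in Ntg, with no overlap. This was 0.65 ± 0.13 (1.57-fold, adjusted p = 0.0081), with 0.92 ± 0.17 in Bmp10-low arrays (adjusted p = 0.0042) and 0.39 ± 0.15 in Bmp10-high arrays (adjusted p = 0.28). With all 32 arrays and the animal as a random replicate block, the rise of 0.65 had an adjusted p of 0.0504. That model had a term for Bmp10 class but none for genotype by class. The genotype-by-chamber change of Dpep1 therefore adds to its error. From dnPI3K to dnPI3K-Mst1 the mean of both atria fell by 0.42 (SE 0.13, adjusted p = 0.033), with an adjusted p of 0.14 under that block and in 6 of 16 fits that left out 1 animal an adjusted p above 0.05. By limma the difference was -1.01 ± 0.17 in Bmp10-low arrays (adjusted p = 0.00036), a call lost in 0 of 16 such fits. In Bmp10-high arrays it was 0.18 ± 0.15 (adjusted p = 0.5). Within animals Dpep1 was higher in the Bmp10-high atrium in 8 of 8 animals with Mst1, by 0.75, 0.98, 0.94 and 1.39 log2 in Mst1 and by 0.80, 0.67, 0.59 and 0.80 in dnPI3K-Mst1. It was lower there in 4 of 4 dnPI3K animals, with differences of -0.16, -0.76, -0.30 and -0.69, and Ntg animals were divided. The genotype-by-chamber change of Mst1 against Ntg was 0.96 ± 0.17 (adjusted p = 0.0029). That of dnPI3K-Mst1 against dnPI3K was 1.19 ± 0.17 (adjusted p = 0.00035, where 1.06% of all genes were called).

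Thy1, the surface glycoprotein CD90, is carried by fibroblasts and also by T cells, neurons and some perivascular cells. Its highest levels were in 1 kind of atrium. In Bmp10-low arrays of dnPI3K-Mst1 it was at 7.77, 7.48, 7.45 and 7.49 log2, and the other 28 arrays lay between 6.38 and 7.06. The rise in Bmp10-low arrays of dnPI3K-Mst1 against Ntg was 0.71 ± 0.10 (1.64-fold, adjusted p = 3e-05). Against Mst1 it was 0.57 ± 0.10 (adjusted p = 0.0074, with 2.55% of all genes called) and against dnPI3K 0.68 ± 0.10 (adjusted p = 0.00011, with 17.4% called). The Bmp10-high estimates for the same comparisons were -0.01, 0.19 and 0.17. The difference between atria changed by -0.73 ± 0.13 in dnPI3K-Mst1 against Ntg (adjusted p = 0.0037), while against Mst1 the change was -0.39 ± 0.13 (adjusted p = 0.99). On the mean of both atria the rise against Ntg was 0.35 ± 0.10 (adjusted p = 0.014), lost without Ntg 1834 or without dnPI3K-Mst1 1509, and that against Mst1 was 0.38 ± 0.10 (adjusted p = 0.047), lost in 11 of 16 fits that left out 1 animal and without the 4 animals with arrays that stood apart (0.38, adjusted p = 0.07). Against dnPI3K the rise of Thy1 was 0.42 ± 0.10 (adjusted p = 0.0057), and without those 4 animals it was 0.36 (adjusted p = 0.074). T cell markers were low: the mean of the 5 that could be tested lay between 4.92 and 5.58 log2 on all arrays. Cd3d was below the floor. In dnPI3K-Mst1 against Ntg 1 of these 5 markers was called, where 30.6% of all genes were. With both transgenes their Bmp10-low arrays lay between 4.96 and 5.29 and their Bmp10-high arrays between 5.04 and 5.32. The 3 Schwann cell genes tested averaged 6.46 in Bmp10-low and 6.21 in Bmp10-high arrays of dnPI3K-Mst1. In the same order their means were 6.12 and 6.11 in Ntg, 6.27 and 6.12 in dnPI3K, and 6.31 and 5.88 in Mst1. The part of T cells and of Schwann cells in the Thy1 result was not tested.

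Cd248, or endosialin, is a surface protein of fibroblasts and pericytes. In every one of the 16 animals it was lower in the Bmp10-high atrium. The differences were -1.14, -1.09, -1.33 and -0.87 log2 in Ntg, -1.06, -0.76, -1.04 and -0.62 in dnPI3K, -0.33, -0.48, -0.69 and -0.30 in Mst1, and -0.68, -0.80, -0.63 and -0.01 in dnPI3K-Mst1. Ntg and Mst1 did not overlap. The mean was -0.74 ± 0.06 (adjusted p = 3.6e-09). The Bmp10-low level was 7.87 ± 0.33 in Ntg (SD, n = 4) and 7.35 ± 0.11 in Mst1, a difference of -0.53 ± 0.14 (SE; adjusted p = 0.0074) that was -0.44 (adjusted p = 0.06) without the 4 animals with arrays that stood apart. In dnPI3K-Mst1 the difference in Bmp10-low arrays was also -0.53 ± 0.14 (adjusted p = 0.0067). In dnPI3K it was -0.49 ± 0.14 in those arrays and was not called by limma (adjusted p = 0.056). The chamber difference was smaller in Mst1 than in Ntg by 0.66 ± 0.16 (adjusted p = 0.049), a call lost in 10 of 16 fits that left out 1 animal. Without the 4 animals with arrays that stood apart it was 0.54 (adjusted p = 0.24). On the mean of both atria Cd248 was called in no genotype comparison, the nearest being dnPI3K against Ntg at -0.37 ± 0.10 (adjusted p = 0.054), which passed after median centring (-0.40, adjusted p = 0.039) and after quantile normalization (-0.36, adjusted p = 0.045).

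**Figure D3:**
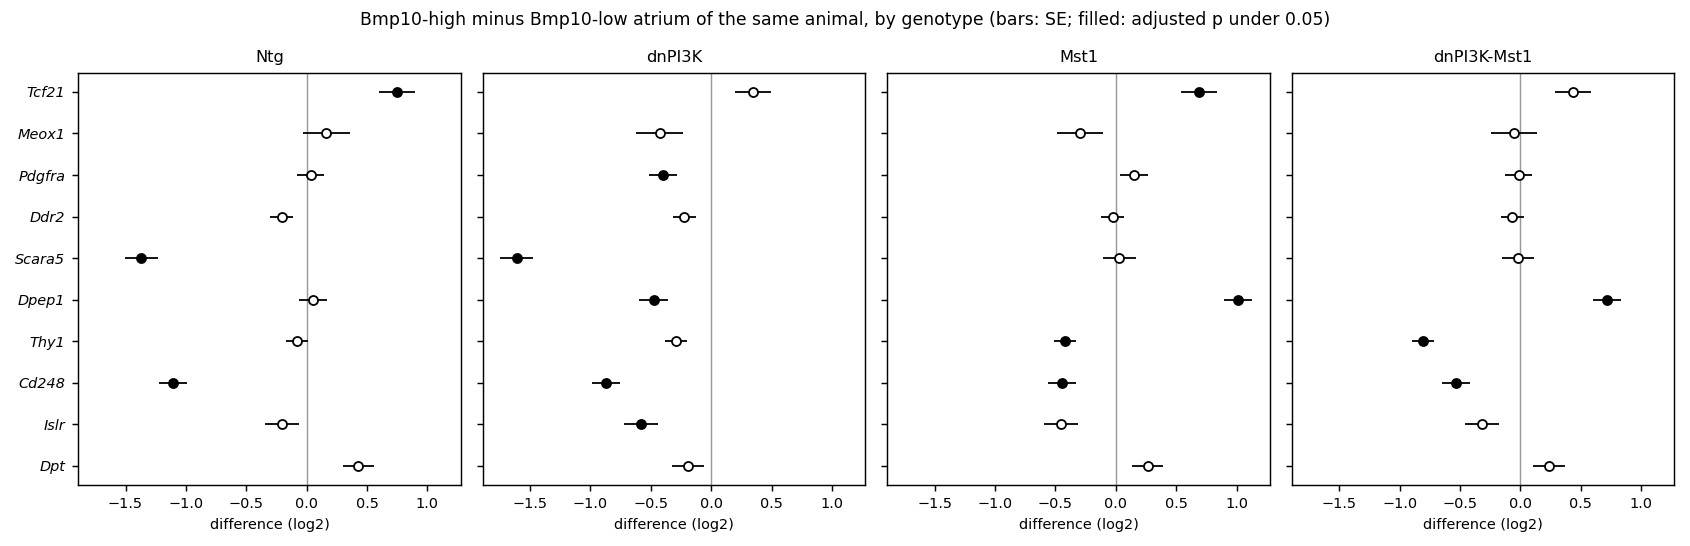
Log2 difference of the Bmp10-high minus the Bmp10-low atrium of the same animal (x axis) for each marker gene (y axis), in 1 panel per genotype with 4 animals each. Points are limma estimates, bars are standard errors, and filled points have an adjusted p under 0.05. Scara5 sits at -1.37 and -1.61 in Ntg and dnPI3K and at 0.03 and -0.02 in Mst1 and dnPI3K-Mst1, and Dpep1 moves from -0.48 in dnPI3K to 0.72 in dnPI3K-Mst1.

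Islr, a secreted leucine-rich repeat protein of stromal cells also known as Meflin, rose in dnPI3K-Mst1 alone. Its means of both atria were 8.02, 7.79, 7.81 and 7.47 log2 in Ntg, 8.17, 7.83, 8.02 and 7.57 in dnPI3K, 7.82, 7.62, 7.59 and 7.79 in Mst1, and 8.30, 8.44, 8.22 and 8.26 in dnPI3K-Mst1. Every dnPI3K-Mst1 animal was above every other animal. The rise was 0.54 ± 0.12 against Ntg (1.45-fold, adjusted p = 0.0019), 0.60 ± 0.12 against Mst1 (1.52-fold, adjusted p = 0.0079) and 0.41 ± 0.12 against dnPI3K (1.33-fold, adjusted p = 0.018). The last of these was lost in 3 of 16 fits that left out 1 animal. Islr was lower in the Bmp10-high atrium of 15 of 16 animals, with a mean difference of -0.39 ± 0.07 (adjusted p = 0.00056). Dpt, or dermatopontin, is a matrix protein that binds decorin and collagen. It was at 10.85, 10.41, 10.32 and 10.34 log2 in Ntg, 10.79, 10.48, 10.71 and 9.89 in dnPI3K, 10.49, 10.51, 10.59 and 10.32 in Mst1, and 10.73, 10.66, 10.45 and 10.47 in dnPI3K-Mst1. All 4 groups overlapped, and the estimates against Ntg were -0.0022, -0.01 and 0.10 with SE of 0.15 in Mst1, dnPI3K and dnPI3K-Mst1 (adjusted p from 0.68 to 0.99). The 95% interval in Mst1 was -0.32 to 0.32 log2.

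The second question was how the markers differed between the atria. Over all 16 animals 6 of 10 were called, where 8.5% of all genes were: Tcf21 and Dpep1 were higher in the Bmp10-high atrium, and Cd248, Scara5, Thy1 and Islr were lower. The median over the 10 was -0.14 log2, against -0.02 for all genes. Tcf21 was higher in the Bmp10-high atrium in 15 of 16 animals, all but dnPI3K 3241, by 0.55 ± 0.07 on average (1.47-fold, adjusted p = 1.3e-05). Its differences were 0.71, 1.16, 0.45 and 0.67 log2 in Ntg, 0.47, 0.46, 0.73 and -0.28 in dnPI3K, 0.38, 1.21, 0.95 and 0.24 in Mst1, and 0.44, 0.20, 0.57 and 0.54 in dnPI3K-Mst1. They overlapped between all genotypes, and no genotype-by-chamber change of Tcf21 was called. Pdgfra, Ddr2, Meox1 and Dpt were not called over all animals (adjusted p from 0.09 to 0.67). In dnPI3K all 4 animals had less Pdgfra in the Bmp10-high atrium, with differences of -0.06, -0.50, -0.36 and -0.67 (mean -0.40 ± 0.11, adjusted p = 0.044). That call was lost in 7 of 16 fits that left out 1 animal, and without the 4 animals with arrays that stood apart (adjusted p = 0.17).

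By genotype, the number of markers called between the atria was 3 of 10 in Ntg (3.65% of all genes) and 5 in dnPI3K (4.8%). It was 4 with Mst1 alone (2.35%) and 3 with both transgenes (1.58%). In Ntg these were Cd248 and Scara5, lower, and Tcf21, higher in the Bmp10-high atrium, the Tcf21 call being lost without Ntg 1657 (adjusted p = 0.056). In dnPI3K all 5 were lower: Scara5, Cd248, Islr, Dpep1 and Pdgfra, the Islr call being lost without dnPI3K 3241 and the Dpep1 call without 3241 or 1648. In Mst1 Dpep1 and Tcf21 were higher and Cd248 and Thy1 lower, and the last 3 were each lost in at least 2 fits that left out 1 animal. In dnPI3K-Mst1 Dpep1 was higher and Thy1 and Cd248 lower, the Cd248 call being lost in 3 of 16 such fits, without 1509, 1647 or 1649. Without the 4 animals with arrays that stood apart, 3 further calls were lost beside that of Pdgfra. Islr in dnPI3K went from -0.58 (adjusted p = 0.015) to -0.44 (adjusted p = 0.089). In Mst1, Cd248 went from -0.45 (adjusted p = 0.038) to -0.49 (adjusted p = 0.059) and Thy1 from -0.42 (adjusted p = 0.012) to -0.37 (adjusted p = 0.056). An F test of whether the chamber difference varied over the 3 transgenic genotypes against Ntg called Scara5 (adjusted p = 5.1e-06), Dpep1 (2.4e-05) and Thy1 (0.013), where 1.8% of all genes were called. For dnPI3K against Ntg 0 of 10 were called by limma (0.125% of all genes), with 4 at an unadjusted p under 0.05. The estimates furthest from 0 were Dpt at -0.62 ± 0.18 and Meox1 at -0.59 ± 0.27. For dnPI3K-Mst1 against Mst1 limma also called 0 (0.00657%), with 1 at an unadjusted p under 0.05, Thy1 at -0.39 ± 0.13. Ordered by the labelled sides, limma called 0 of 10 between right and left (0.00657% of all genes). At an unadjusted p under 0.05 there were 5, with Thy1 at 0.35 ± 0.06 (adjusted p = 0.059) and Scara5 at 0.42 ± 0.17 (adjusted p = 0.48). After quantile normalization 1 of 10 was called there.

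The genotype comparisons were also made within each kind of atrium. In Bmp10-high arrays limma called 3, 0 and 4 of 10 markers in Mst1, dnPI3K and dnPI3K-Mst1 against Ntg, where 14.8%, 0.986% and 16.6% of all genes were called. In dnPI3K 2 of 10 had an unadjusted p under 0.05. In Bmp10-low arrays the counts were 4, 2 and 7, where 27%, 3.8% and 29.8% were. The call of Tcf21 in Bmp10-high arrays of Mst1 (0.50 ± 0.16, adjusted p = 0.041) was lost in 8 of 16 fits that left out 1 animal and without the 4 animals with arrays that stood apart (0.37, adjusted p = 0.15). Tcf21 in dnPI3K-Mst1 against Ntg was called in both, at 0.70 ± 0.16 (adjusted p = 0.0037) in Bmp10-high and 1.02 ± 0.21 (adjusted p = 0.0011) in Bmp10-low arrays. Pdgfra was also called in both in that comparison, at 0.42 ± 0.13 (adjusted p = 0.033) and 0.47 ± 0.14 (adjusted p = 0.016), with the first lost in 5 and the second in 2 of 16 fits that left out 1 animal. The rise of Pdgfra in dnPI3K against Ntg was 0.71 ± 0.14 in Bmp10-low arrays (adjusted p = 0.0057) and 0.28 ± 0.13 in Bmp10-high arrays (adjusted p = 0.4). Without the 4 animals with arrays that stood apart the first was 0.68 (adjusted p = 0.11). Islr in dnPI3K-Mst1 against Ntg was called in Bmp10-low arrays (0.59 ± 0.12, adjusted p = 0.00083) and had a similar estimate with a larger error in Bmp10-high arrays (0.48 ± 0.19, adjusted p = 0.088).

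The third question was how genes of resting and of activated fibroblasts compared. Activated genes rose with Mst1 while resting genes were divided. Of all genes tested, 12.6% were called higher and 14.2% lower in Mst1 against Ntg, 1.29% and 2.75% in dnPI3K, and 16.4% and 14.2% with both transgenes. The activated list held 22 genes, of which Fap was below the floor, Loxl2 had no probe set of its own and 20 were tested. In Mst1 against Ntg 15 of 20 activated genes rose and 0 fell, with a median of 0.97 log2, against -0.00106 for all genes. In dnPI3K-Mst1 against Ntg 17 rose and 0 fell, with a median of 1.37. Against dnPI3K 19 rose, with a median of 1.20, where 12.8% of all genes rose. In dnPI3K against Ntg 1 rose, Ccn2 by 0.88 ± 0.20 (adjusted p = 0.017), and the median was -0.07. Of the resting list, all 19 genes were tested: 6 rose and 6 fell in Mst1 against Ntg (median 9.38e-05), 3 rose and 0 fell in dnPI3K (median 0.13), and 8 rose and 4 fell in dnPI3K-Mst1 (median 0.115). Meox1 is in the activated list and Tcf21, Pdgfra, Scara5, Dpep1 and Dpt are in the resting list, so that the counts are not independent of the values above. Pdgfra, which marks both forms, is among the resting genes counted as higher in dnPI3K and in dnPI3K-Mst1.

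**Figure D4:**
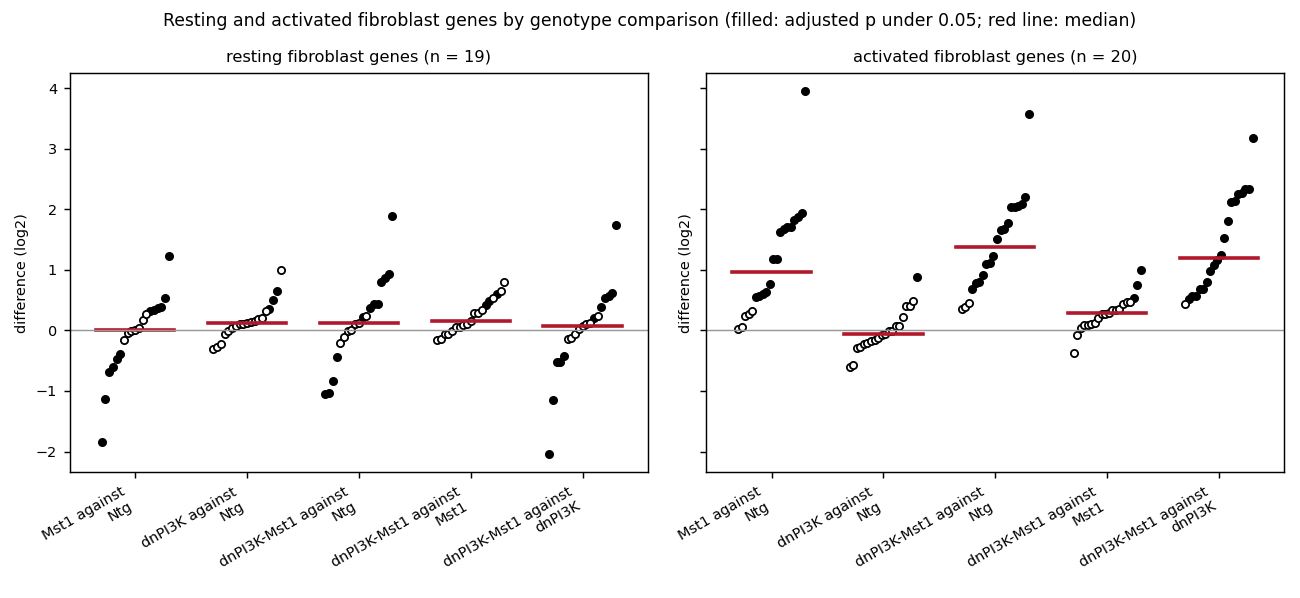
Log2 difference (mean of both atria) of genes of resting and of activated fibroblasts, with each gene as a point. Columns are each transgenic genotype against Ntg, and dnPI3K-Mst1 against Mst1 and against dnPI3K. Against Ntg, the activated genes have medians of 0.97 for Mst1, -0.07 for dnPI3K and 1.37 for both transgenes, and the resting genes lie around 0 with members on both sides.

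Among the activated genes, the largest rises in Mst1 against Ntg belonged to Thbs4 (3.95 log2), a matricellular protein, to Meox1 itself (1.94), to Ltbp2 (1.87), which binds elastic fibres, and to Col12a1 (1.82). Periostin (Postn), the usual sign of the activated state, was at 0.27 ± 0.21 (adjusted p = 0.4) in Mst1 on the mean of both atria. Its genotype-by-chamber change was -1.19 ± 0.18 (adjusted p = 0.00065). The estimate for Mst1 against Ntg was thus higher in the Bmp10-low than in the Bmp10-high atrium, and the mean of both describes neither. Tagln (1.71) and Acta2 (0.64) are also genes of smooth muscle, and Ccn2 (1.63) is also made by myocytes. Fn1, Lox and Comp, which encode fibronectin, a collagen cross-linking enzyme and a matrix protein, were also higher in dnPI3K-Mst1 than in Mst1, by 1.00, 0.75 and 0.54. Of 8 collagen genes of types I, III, V and VI, 2 rose in Mst1 against Ntg (Col6a2 by 0.48 and Col6a3 by 0.45), 0 in dnPI3K (also 0 at an unadjusted p under 0.05) and 8 in dnPI3K-Mst1 by limma, with medians of 0.45, -0.07 and 0.84. For dnPI3K-Mst1 against Mst1, where 3.5% of all genes were called, limma called 0 of the 8 collagens and 3 of the 6 PDGF genes. Of the collagens, 6 had an unadjusted p under 0.05 there.

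Among the resting genes, those that fell beside Scara5 in Mst1 against Ntg were Inmt (-1.84), Cxcl14 (-0.69), Clec3b (-0.60), Smoc2 (-0.47) and Hsd11b1 (-0.39). Those that rose beside Tcf21 were Ecrg4 (1.24), Gpx3 (0.38), Gsn (0.37), Abca8a (0.33) and Dcn (0.31). Inmt, a methyltransferase, had a genotype-by-chamber change of the same sign as Scara5, 2.31 ± 0.37 in Mst1 and 2.36 ± 0.37 in dnPI3K-Mst1 against Ntg (adjusted p = 0.0012 and 0.00092). Ecrg4 changed the other way, by -0.83 ± 0.16 and -0.96 ± 0.16 (adjusted p = 0.0053 and 0.0011). Abca8a, a lipid transporter, rose in all 3 transgenic genotypes, by 0.33, 0.36 and 0.93. Of the 19 resting genes, 3 were higher and 8 lower in the Bmp10-high atrium over all animals, where 3.08% and 5.42% of all genes were. In dnPI3K limma called 0 higher and 10 lower (median -0.43), where 1.54% and 3.25% of all genes were.

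Markers of other cells moved with genotype too. In Mst1 against Ntg 4 of 6 endothelial, 3 of 7 mesothelial, 4 of 7 mural, 2 of 4 adipocyte, 1 of 6 macrophage and 2 of 6 cardiac myocyte genes fell, where 14.2% of all genes fell, and 1 mural gene rose, Cspg4 by 0.95. In dnPI3K-Mst1 against Ntg 3 of 6 macrophage, 2 of 7 mural and 1 of 6 endothelial genes rose, where 16.4% of all genes did. In that comparison 3 of 6 myocyte genes and 1 gene each of the mural, endothelial and adipocyte lists fell, where 14.2% did. In dnPI3K against Ntg limma called 0 of the endothelial, mesothelial, mural, macrophage, adipocyte and myocyte genes, with 2 adipocyte genes and 1 endothelial gene at an unadjusted p under 0.05. The mean level of the endothelial genes ran from 9.38 to 9.84 log2 in Ntg, 9.38 to 9.76 in dnPI3K, 8.88 to 9.56 with Mst1 alone and 9.10 to 9.62 with both transgenes. That of the mural genes ran from 7.61 to 8.09 in Ntg, 7.60 to 7.86 in dnPI3K, 7.35 to 7.68 in Mst1 and 7.74 to 8.27 in dnPI3K-Mst1, and that of the mesothelial genes from 6.10 to 7.26, 6.23 to 7.46, 5.56 to 6.73 and 6.42 to 7.58. The macrophage genes had mean levels of 7.48 to 8.30 in Ntg, 7.72 to 8.31 in dnPI3K, 7.33 to 7.96 in Mst1 and 7.73 to 8.76 in dnPI3K-Mst1. For the adipocyte genes, 4 of 6 tested, it ran from 6.16 to 7.76 in Ntg, 6.17 to 6.83 in dnPI3K, 5.94 to 6.89 in Mst1 and 5.92 to 7.88 in dnPI3K-Mst1. The part of these cells in the results for Scara5, Cd248 and the other fibroblast markers was not tested.

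The last question was whether the markers varied together between animals of a genotype. Deviations from the mean of each genotype and Bmp10 class were correlated over the 32 arrays, which share an animal in pairs and include the 4 that stood apart. Over the 45 pairs of markers the median Pearson r was 0.29 (-0.50 to 0.67), and 37 pairs were above 0; over all pairs of genes tested the median was 0.03. The highest values joined the receptor kinases Pdgfra and Ddr2 (0.67), the secreted proteins Islr and Dpt (0.66), and Pdgfra and Dpep1 (0.57). The lowest joined Meox1 and Dpep1 (-0.50), and Meox1 was also below 0 with Pdgfra (-0.32) and Scara5 (-0.22). Among all genes tested, the deviations most like those of Tcf21 belonged to Cdkn2c (0.88), those most like Islr to Loxl1 (0.86), a lysyl oxidase, and those most like Pdgfra to Serping1 (0.81), a complement inhibitor. For Meox1 they belonged to Tspan2 (0.75) and to the natriuretic peptide gene Nppb (0.74), and for Cd248 to Timp1 (0.75), an inhibitor of matrix proteases. Scara5 was closest to Prkar2b (0.79) and to Fasn (0.77) and Acaca (0.75), enzymes of fatty acid synthesis. Dpep1 was closest to Slc43a3 (0.76), Thy1 to Syp (0.74), Ddr2 to Eps15 (0.80) and Dpt to Rap2b (0.82).

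**Figure D5:**
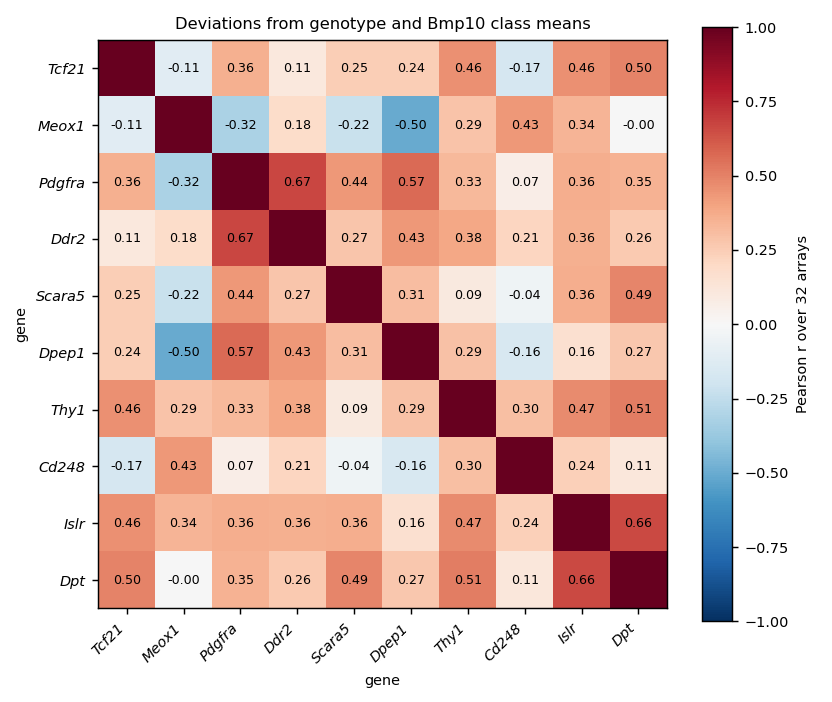
Pearson correlation over 32 arrays between the marker genes (both axes), computed on deviations from the mean of each genotype and Bmp10 class; the colour scale runs from -1 to 1. Most cells are above 0, and the Meox1 row holds the lowest value, -0.50 with Dpep1.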

How the data were processed

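Total RNA (100 ng per sample) from single atria was hybridised to Affymetrix Mouse Gene 1.0 ST arrays, per the labels' protocols. The deposited values are log2 probe set signals; the submitters' processing notes name Affymetrix Expression Console and PLIER, and versions and settings are not given in the sources used here. No label states the base of the logarithm, which was judged from the spread of values, 1.16 to 14.08. No further scaling was applied. The array annotation gave 1 symbol for 21789 of 35512 probe sets, which were used, several for 1621 and none for 12102; a gene was represented by its brightest probe set. Genes with a mean below the 30th percentile of probe sets (4.48 log2) were left out.

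Genotypes were compared with limma 3.58.1 (lmFit, eBayes with trend; R 4.3.3), two-sided, on the mean of each animal's 2 arrays, with all 16 animals sharing an estimate of the spread. Chamber differences were fitted on each animal's Bmp10-high minus Bmp10-low value, with a trend on mean level. P-values were adjusted by Benjamini-Hochberg over 15219 genes, and the procedure was tested on simulated data. The 2 arrays of an animal carry its number in the labels, which is the source of the pairing; their deviations from group means correlated at a median of 0.22 (-0.01 to 0.44), above 0.1 in 12 of 16 animals. No array was left out, and the highest correlation of 2 arrays was 0.990.

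The 10 genes and all lists were chosen with earlier results of these data known. The rule for named genes took all 10 in every comparison, of which those not called are given in part by counts alone, up to 4 called genes of each list with the largest change, Stk4 and Bmp10, and for each of the 10 up to 3 genes with the most similar deviations; a few further list genes were named after their values were seen. Alternatives covered the filter, the probe set, median centring, quantile normalization, the trend, array weights, the replicate block, single genotype pairs, labelled sides, the Bmp10 threshold and leaving out each animal. The genotype-by-chamber comparisons of dnPI3K-Mst1 with dnPI3K and with Mst1 were added after seeing the data.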

Additional observations from a re-analysis of the deposited data

Results flagged for a closer look

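In groups of 4 animals, 10 of 120 sets of values of the 10 genes held 1 animal far from the other 3 relative to the whole range. Chance gives about 1 in 20 such groups. The 120 sets are not independent, because each mean of both atria was also examined as its single arrays. The 10 sets can therefore not be set against that rate. On the mean of both atria the animals apart were Ntg 1301 for Pdgfra (9.23 log2, the others 8.85 to 8.91) and for Dpt (10.8, the others 10.3 to 10.4). So were dnPI3K 1648 for Ddr2 (8.11, the others 8.31 to 8.34) and dnPI3K 1507 for Dpep1 (8.95, the others 9.17 to 9.19). Ntg 1301 was also apart for Dpep1 in the Bmp10-high array (8.77, the others 8.38 to 8.44). On single arrays, dnPI3K 1507 had high Meox1 in its Bmp10-low atrium (8.61, the others 7.18 to 7.25), and Mst1 1840 had low Tcf21 in its Bmp10-high atrium (8.92, the others 9.46 to 9.5). Thy1 was high in the Bmp10-high array of dnPI3K 1660 (7.01, the others 6.38 to 6.47) and in the Bmp10-low array of dnPI3K-Mst1 1509 (7.77, the others 7.45 to 7.49), and Cd248 was low in the Bmp10-low array of Ntg 1834 (7.38, the others 8 to 8.11).

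The difference between an animal's atria changed between genotypes, by limma at an adjusted p under 0.05, in 7 cases. Of all genes, 1.17% were called in Mst1 against Ntg, 0.999% in dnPI3K-Mst1 against Ntg and 1.06% in dnPI3K-Mst1 against dnPI3K. In dnPI3K against Ntg and in dnPI3K-Mst1 against Mst1, 0 of the 10 were called, where 0.125% and 0.00657% of all genes were. Scara5 changed by 1.40 in Mst1 and by 1.35 in dnPI3K-Mst1 against Ntg, and by 1.59 in dnPI3K-Mst1 against dnPI3K. Dpep1 changed by 0.961 in Mst1 against Ntg and by 1.19 in dnPI3K-Mst1 against dnPI3K. Cd248 changed by 0.658 in Mst1 against Ntg, a call lost in 10 of 16 fits that left out 1 animal. Thy1 changed by -0.727 in dnPI3K-Mst1 against Ntg.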

How the results depend on the processing

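Over 11 counts of called markers, 262 of 281 values under other settings lay within 1.5 times the reported count. Of 1912 values of called single results, 1765 kept their direction and side of the threshold, 145 lost the call and 2 reversed. The precision is limited by 4 animals per genotype. With the animal as a random replicate block over 32 arrays (correlation 0.15), 1 marker was called in dnPI3K against Ntg in place of 2. No other count changed by over 1.5 times under that block, whose model had no genotype-by-class term. Without the 4 animals with arrays that stood apart, a setting chosen after seeing the data, 1 was called in dnPI3K against Ntg and 1 in dnPI3K-Mst1 against Mst1 (3 reported), and median centring also gave 1 in the latter. Arrays labelled left mix Bmp10 classes in Ntg and Mst1 and are all Bmp10-high in dnPI3K and dnPI3K-Mst1. They gave 0 in dnPI3K against Ntg. For dnPI3K-Mst1 they gave 3 against Ntg, 0 against Mst1 and 1 against dnPI3K. Quantile normalization gave 1 for labelled right minus left.

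Leaving out each animal in turn, the counts ranged from 2 to 4 in Mst1 against Ntg, 2 to 3 in dnPI3K against Ntg, and 0 to 0 for non-additivity. For dnPI3K-Mst1 they ranged from 5 to 6 against Ntg, 1 to 3 against Mst1 and 4 to 6 against dnPI3K. They ranged from 6 to 7 between the atria, 2 to 4 for genotype by chamber and 0 to 3 between labelled sides. Over the 5 genotype comparisons together, they ranged from 6 to 12 in Bmp10-high and 17 to 21 in Bmp10-low arrays.

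Reversed values follow, in log2. For dnPI3K-Mst1 against dnPI3K, arrays labelled left were all Bmp10-high and those labelled right all Bmp10-low. Values by labelled side in that comparison are therefore those of a single Bmp10 class. The cause of the other reversals was not tested. Of called results, arrays labelled left gave Dpep1 0.18 in dnPI3K-Mst1 against dnPI3K and Thy1 -0.055 in dnPI3K-Mst1 against Ntg. The others concern estimates that were not called. Without the 4 animals, Meox1 was 0.043 between the atria and 0.14 in dnPI3K against Ntg, Dpt 0.062 in dnPI3K against Ntg and -0.015 in dnPI3K-Mst1 against dnPI3K, and Ddr2 0.049 in Mst1 against Ntg. With arrays labelled right, dnPI3K against Ntg gave Cd248 0.13, Dpt 0.15, Meox1 0.22 and Thy1 0.074; dnPI3K-Mst1 against dnPI3K gave Cd248 -0.040, Ddr2 -0.058 and Dpt -0.10; dnPI3K-Mst1 gave Cd248 0.17 against Mst1 and, against Ntg, Cd248 0.091 and Dpep1 -0.18; and Mst1 against Ntg gave Dpt 0.019, Islr 0.021, Pdgfra -0.0056 and Thy1 0.12. With arrays labelled left, dnPI3K against Ntg gave Islr -0.13 and Scara5 -0.71, dnPI3K-Mst1 against dnPI3K gave Pdgfra 0.14, and Mst1 against Ntg gave Dpep1 0.28. Array weights gave Dpt 0.094 and Meox1 0.081 in dnPI3K against Ntg, Dpt -0.044 in dnPI3K-Mst1 against dnPI3K, and Ddr2 0.0068, Dpep1 0.0021 and Dpt 0.0031 in Mst1 against Ntg. Quantile normalization gave Dpt 0.01 in dnPI3K against Ntg, Ddr2 -0.027 in dnPI3K-Mst1 against dnPI3K and Dpt 0.030 in Mst1 against Ntg.

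Leaving out 1 animal also turned signs. In Mst1 against Ntg, Ddr2 ran from -0.13 to 0.010, Dpep1 from -0.16 to 0.066, Dpt from -0.054 to 0.12, Islr from -0.17 to 0.016, Pdgfra from -0.034 to 0.12 and Thy1 from -0.12 to 0.056. In dnPI3K against Ntg, Dpt ran from -0.12 to 0.18, Meox1 from -0.37 to 0.23 and Thy1 from -0.16 to 0.014. In dnPI3K-Mst1 against dnPI3K, Ddr2 ran from -0.034 to 0.043, Dpt from -0.081 to 0.22 and Pdgfra from -0.15 to 0.021, and against Mst1 Cd248 ran from -0.080 to 0.014.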
